A study of Mus musculus with 2 samples.

Results

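The 6 genes C1qa, C1qb, C1qc, C3, C3ar1 and C5ar1 of the complement system were followed in single cells of mouse spinal cord. They were chosen by gene symbol, each symbol matched 1 row, and they make up 6 of the 27998 genes in the deposited tables. The injured library came from cord taken on day 5 after lysolecithin, a lipid that strips myelin from axons, and the uninjured library came from age-matched cord. All mice carried Cx3cr1-CreER and a Rosa26-tdTomato reporter on the C57BL/6J background. Every mouse, uninjured ones included, received 2 injections of 1 mg of 4-hydroxytamoxifen in week 4 after birth, and tissue was collected after a further 4 weeks. Cre recombination is driven by the Cx3cr1 promoter in this model, and it marks microglia, other resident macrophages and any other cell with Cx3cr1 activity at the time of the drug. Cells were sorted for tdTomato. The number of animals behind each library, and their sex, were not stated.

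Complement is a protease cascade of blood and tissue that tags material for uptake. C1q, built from the chains encoded by C1qa, C1qb and C1qc, starts the classical pathway, and in the central nervous system microglia are its main source. Activation of the central component C3 releases the fragment C3a, and activation of C5 releases C5a. These small peptides, the anaphylatoxins, act on the G protein-coupled receptors encoded by C3ar1 and C5ar1 on myeloid cells.

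After filtering there were 577 injured and 695 uninjured cells. Unique molecular identifiers (UMIs, 1 per captured RNA molecule) reached a median of 4396 in injured and 3003 in uninjured cells. Totals were 3095511 UMIs in injured and 2093084 UMIs in uninjured cells, and the libraries shared 0 barcodes. Summed levels are given as CPM, the UMIs of a gene scaled to a common library total. A UMI is counted once at the 3′ end of a molecule, so CPM values of different genes can be set side by side without division by length. There was 1 library per group, so no difference has a replicate check, no p-value was computed, and the 95% intervals cover counting error only. All 11 homeostatic microglia markers were detected in both libraries, at 15285 CPM summed in injured and 27238 CPM in uninjured cells, whereas the T and NK cell markers summed to 0.323 CPM in injured and 0 CPM in uninjured cells. Of 6 neutrophil markers, 4 were detected in injured cells (84.3 CPM summed) and 2 in uninjured cells (203 CPM), with Ly6g and Retnlg at 0 in both. S100a8 and S100a9 were also at 0 in uninjured cells, so the uninjured sum came from Mmp8 and Csf3r alone. Of 5 monocyte markers, 4 were detected in injured cells (13.2 CPM) and 3 in uninjured cells (5.26 CPM), with Ly6c2 at 0 in both. The dendritic cell and MHC class II markers summed to 386 CPM in injured and 1266 CPM in uninjured cells. Sex-linked RNA differed: 147 injured and 235 uninjured cells had Y-linked UMIs alone, and 213 injured and 6 uninjured cells had Xist UMIs alone. Early response genes also differed, with Fos, Jun, Junb, Atf3 and Egr1 summing to 4931 CPM in injured and 10976 CPM in uninjured cells, a list picked after the data were seen. The part of depth, sex and early response genes in the results that follow was not tested, except where a value is given.

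In the GENCODE annotation of GRCm38, the 3 C1q genes lie side by side on the minus strand of chromosome 4, within 18.675 kb and with 0 other annotated genes between them. C1qb (ENSMUSG00000036905) spans chr4:136880129-136886187, C1qc (ENSMUSG00000036896) spans chr4:136889804-136893065, and C1qa (ENSMUSG00000036887) spans chr4:136895917-136898803. C3 (ENSMUSG00000024164) spans chr17:57203970-57228136 and overlaps the microRNA gene Mir6978 on the same strand. C3ar1 (ENSMUSG00000040552) spans chr6:122847138-122856161, and C5ar1 (ENSMUSG00000049130) spans chr7:16246743-16259540. Both receptor genes and C3 are also on the minus strand, and all 6 genes are annotated as protein-coding.

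The DNA upstream of the RefSeq starts is shown for neighbouring C1q genes that varied together across cells and for the receptor genes, from RefSeq promoter windows on GRCm38.p6. RefSeq places these starts at base 136886200 of chromosome 4 for C1qb, 136892914 of chromosome 4 for C1qc, 122856157 of chromosome 6 for C3ar1 and 16259338 of chromosome 7 for C5ar1, which differ from the GENCODE gene ends above. Each is printed 5′ to 3′ on the gene's own strand, with bases inside annotated exons left out. Capitals mark matches to the 7-base motif AGGAAGT, searched on both strands and read here as its reverse complement ACTTCCT. The motif holds the GGAA core bound by ETS-family factors such as PU.1, a factor that myeloid cells depend on, and it was picked after the sequences had been seen. The stretches lie at chr4:136886201-136886450 for C1qb, chr4:136893066-136893164 for C1qc, chr6:122856162-122856407 for C3ar1 and chr7:16259339-16259512 for C5ar1. The C5ar1 stretch, all 174 bases of it, lies between exons inside the longer GENCODE span of that gene, and the other stretches lie outside the GENCODE spans.
C1qb: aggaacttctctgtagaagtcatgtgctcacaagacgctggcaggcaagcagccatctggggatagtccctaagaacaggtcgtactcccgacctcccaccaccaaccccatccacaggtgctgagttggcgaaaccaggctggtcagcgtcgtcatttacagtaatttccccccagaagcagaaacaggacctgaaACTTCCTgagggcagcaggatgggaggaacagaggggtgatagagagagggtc
C1qc: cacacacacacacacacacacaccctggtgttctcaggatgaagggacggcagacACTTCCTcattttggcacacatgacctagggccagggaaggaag
C3ar1: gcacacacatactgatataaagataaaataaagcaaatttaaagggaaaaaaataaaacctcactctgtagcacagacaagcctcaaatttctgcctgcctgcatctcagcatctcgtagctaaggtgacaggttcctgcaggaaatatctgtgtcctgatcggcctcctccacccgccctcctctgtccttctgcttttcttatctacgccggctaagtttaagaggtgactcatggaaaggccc
C5ar1: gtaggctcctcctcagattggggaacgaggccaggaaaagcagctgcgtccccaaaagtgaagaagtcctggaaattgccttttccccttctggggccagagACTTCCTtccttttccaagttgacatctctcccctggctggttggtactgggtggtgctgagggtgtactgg
Windows of 250 bases were matched for 5 of the 6 genes, not for C1qa. The motif occurred in 3 of these 5. Counted to the 5′ end of the match, it stood 53 bases before the RefSeq start of C1qb, 195 bases before that of C1qc, and both 190 and 72 bases before that of C5ar1. The C5ar1 stretch as printed holds 1 of its 2 matches. Of 32851 promoter windows of the same length, 7.69% held the motif. A match is a description of these letters and was not related to factor binding here.

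The C1q chains were among the most abundant RNAs of both libraries and stood slightly lower per UMI in injured cells. Together they gave 78256 UMIs in injured and 58610 UMIs in uninjured cells, which is 2.53% and 2.80% of all UMIs in injured and uninjured cells. The sum was 1.11-fold lower in injured cells (log2 ratio of injured over uninjured −0.15, 95% interval −0.16 to −0.13). The median log2 ratio over all 9066 genes with at least 20 UMIs was also −0.15. The sign depended on the scaling, because library factors computed by the TMM and DESeq2 methods add 0.15 and 0.19 to every log2 ratio.

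C1qb, the B chain, had 9961 CPM in injured and 10964 CPM in uninjured cells (log2 ratio −0.14, −0.16 to −0.11), and ranked 8th and 7th of all genes by UMIs in injured and uninjured cells. C1qa, the A chain, had 8308 CPM in injured and 9271 CPM in uninjured cells (−0.16, −0.19 to −0.13). C1qc, the C chain, had 7011 CPM in injured and 7766 CPM in uninjured cells (−0.15, −0.18 to −0.12). The 3 log2 ratios differed from each other by less than their counting intervals.

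Summed over each library, the chains also kept a common ratio. C1qa took 32.9% of C1q UMIs in injured cells (32.5 to 33.2) and 33.1% in uninjured cells (32.7 to 33.5). C1qb took 39.4% in injured and 39.2% in uninjured cells, and C1qc took 27.7% in both. None of these shares differed between libraries beyond counting error. Among cells with at least 20 C1q UMIs, 562 injured and 671 uninjured, the C1qb share had a median over cells of 40.3% in injured and 39.4% in uninjured cells and a mean of 40.9% in injured and 39.6% in uninjured cells. The mean C1qa share was 31.6% in injured and 31.9% in uninjured cells, so cells weighted equally held slightly more C1qb and less C1qa than the summed UMIs.

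C1q RNA was found in nearly every cell. At 1500 UMIs per cell, to which 567 injured and 604 uninjured cells could be thinned, C1qa had a UMI in 98.9% of injured and 99.8% of uninjured cells. UMIs of all 3 chains were present in 98.2% of thinned injured and 99.5% of thinned uninjured cells. Without thinning, 2 injured and 0 uninjured cells had no C1q UMI, and those 2 lay in clusters with border macrophage or endothelial and glial markers. Per 10000 UMIs of a cell, C1qb had a median of 98.9 in injured cells (quartiles 78.2 and 123, maximum 240) and 105 in uninjured cells (82.9 and 129, maximum 262). C1qa had a median of 76.3 in injured cells (58.6 and 98.6, maximum 204) and 84.8 in uninjured cells (62.0 and 111, maximum 442). C1qc had a median of 68.6 in injured cells (52.5 and 84.0, maximum 196) and 74.6 in uninjured cells (58.6 and 95.8, maximum 236). The distributions overlapped over most of their range for each chain.

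**Figure D1:**
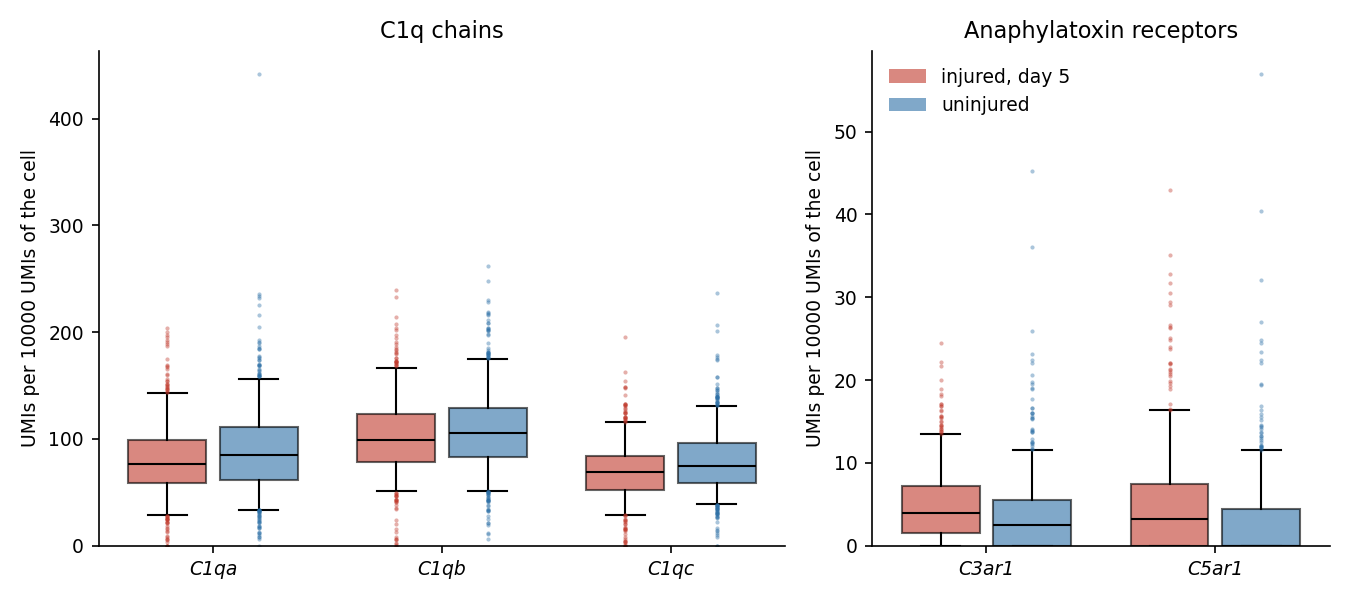
Level per cell, in UMIs per 10000 UMIs of the cell, for the C1q chains (left) and the anaphylatoxin receptors (right) in 577 injured and 695 uninjured cells. Boxes span the quartiles with the median as a line, whiskers run from the 5th to the 95th percentile and points are cells beyond them; the C1q boxes of both libraries overlap, while the C5ar1 median is 3.28 in injured cells and 0 in uninjured cells.

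Free RNA in the droplets can place C1q UMIs in cells that do not make it. Barcodes with endothelial or glial markers, chosen by a rule set after the clusters were seen, numbered 8 in the injured and 4 in the uninjured library, with medians of 3258 and 1737 UMIs in injured and uninjured barcodes. The C1q chains gave 43 UMIs (1424 CPM) in the injured and 21 UMIs (2790 CPM) in the uninjured barcodes of this kind. The library level of C1q was 17.7-fold higher than that in injured and 10.0-fold higher in uninjured cells. A share of cells with a C1q UMI therefore carries little information by itself, and the CPM values are the better measure. Among the same barcodes, C3ar1 had a UMI in 0 of 8 injured and 1 of 4 uninjured, and C5ar1 in 1 of 8 injured and 0 of 4 uninjured. These barcodes are too few to set a background for the receptors.

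C3 RNA was close to the limit of detection. C3, the component on which all complement pathways converge, had 18 UMIs in injured and 5 UMIs in uninjured cells, or 5.81 and 2.39 CPM in injured and uninjured cells. Its log2 ratio of 1.28 had an interval that spanned 0 (−0.20 to 3.07), so a difference in C3 was not detectable at this depth. Without thinning, 17 of 577 injured cells and 5 of 695 uninjured cells had a C3 UMI, and 16 of those 17 injured cells had a single one. At 1500 UMIs per cell the shares were 1.06% of injured cells (0.389 to 2.29) and 0.662% of uninjured cells (0.181 to 1.69). In injured cells, 10 of the 18 UMIs lay in cluster 4, which led with Igf1, Cd5l and Htr2b and whose injured cells had a median of 8231 UMIs. C3 was the only member past 2-fold, 1 of 6, where 7.22% of the 9066 genes were at least 2-fold higher, 11.5% at least 2-fold lower and 18.7% either. With TMM factors the split of all genes was 8.79% higher and 8.67% lower, and with DESeq2 size factors it was 9.40% higher and 7.84% lower.

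Both anaphylatoxin receptors stood higher in injured cells, C5ar1 by more than C3ar1. C5ar1, the main receptor for C5a, had 1680 UMIs (543 CPM, 517 to 569) in injured and 611 UMIs (292 CPM, 269 to 316) in uninjured cells. That is a 1.86-fold higher level in injured cells (log2 0.89, 0.76 to 1.03). C3ar1, the receptor for C3a, had 1441 UMIs (466 CPM, 442 to 490) in injured and 716 UMIs (342 CPM, 317 to 368) in uninjured cells, a 1.36-fold higher level (log2 0.44, 0.31 to 0.58). The counting intervals of the 2 log2 ratios did not overlap. By UMIs, C5ar1 ranked 263rd of all genes in injured and 475th in uninjured cells, and C3ar1 ranked 309th in injured and 411th in uninjured cells, so the order of the receptors was exchanged between the libraries. C5ar1 reached 2-fold with TMM factors (log2 1.04), with DESeq2 size factors (1.08) and in cells with Y-linked UMIs alone (1.00).

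More injured cells held receptor RNA at equal depth. At 1500 UMIs per cell, C5ar1 had a UMI in 45.1% of injured cells (41.0 to 49.4) and 27.6% of uninjured cells (24.1 to 31.4). For C3ar1 the thinned shares were 48.3% of injured cells (44.1 to 52.5) and 39.1% of uninjured cells (35.2 to 43.1). The intervals of the libraries did not overlap for either receptor. As deposited, 71.8% of injured and 43.6% of uninjured cells had a C5ar1 UMI, and 79.0% of injured and 54.8% of uninjured cells a C3ar1 UMI. Per 10000 UMIs, C3ar1 had a median of 3.94 in injured cells (quartiles 1.57 and 7.25, maximum 24.5) and 2.50 in uninjured cells (0 and 5.55, maximum 45.3). C5ar1 had a median of 3.28 in injured cells (0 and 7.43, maximum 43.0) and 0 in uninjured cells (0 and 4.42, maximum 56.9). For C3ar1, the 10 cells with most of its UMIs held 7.49% of them in injured and 10.1% in uninjured cells. Whether the receptors were spread less evenly over cells than C1q was not tested.

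**Figure D2:**
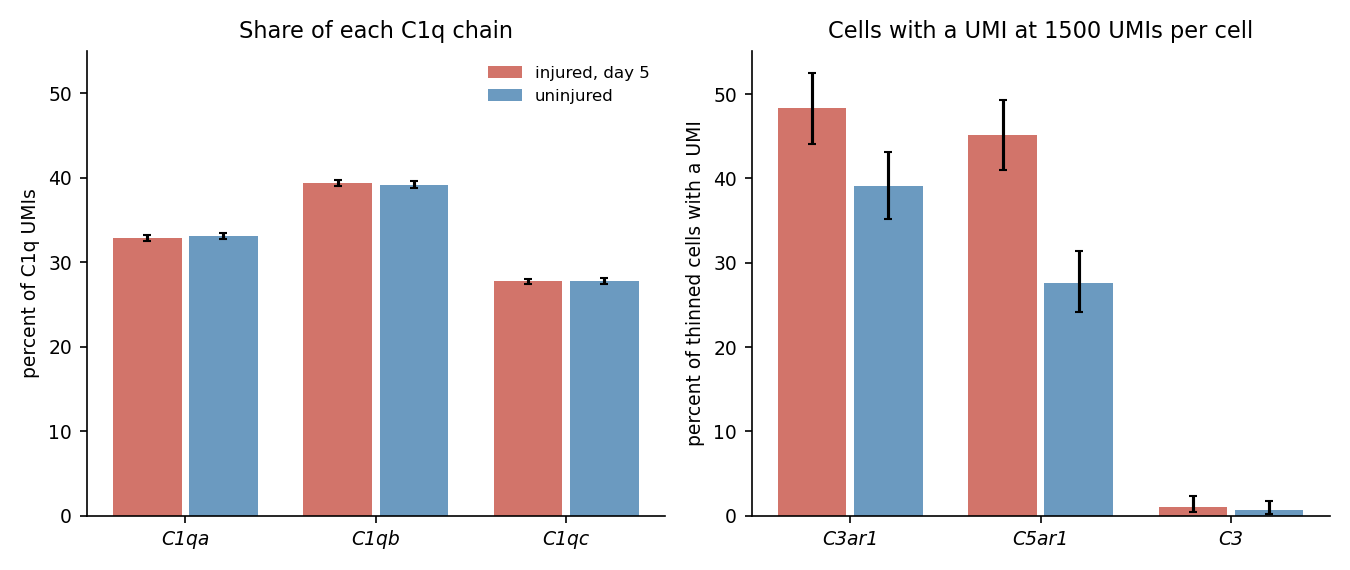
Left, share of each chain among C1q UMIs in injured and uninjured cells, in percent; right, percent of cells with at least 1 UMI after thinning to 1500 UMIs (567 injured and 604 uninjured cells). Error bars are exact 95% binomial intervals; the chain shares match between libraries, whereas C5ar1 was found in 45.1% of injured and 27.6% of uninjured cells.

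Some cells held RNA of both receptors. UMIs of both C3ar1 and C5ar1 were seen in 135 of 567 thinned injured cells (23.8%) and 73 of 604 thinned uninjured cells (12.1%). Neither receptor had a UMI in 30.3% of injured and 45.4% of uninjured cells. Cells with both made up 52.7% of C5ar1 cells and 49.3% of C3ar1 cells in the injured library, and 43.7% of C5ar1 cells and 30.9% of C3ar1 cells in the uninjured library. Both receptors were detected in more injured cells, which by itself raises the share of cells with both. C5ar1 had a UMI in 49.3% of injured cells with C3ar1 and 41.3% of injured cells without it, against 30.9% and 25.5% in uninjured cells with and without C3ar1. At this depth a cell without a UMI may still hold the RNA.

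The receptor differences were also present in cells with Y-linked UMIs alone. Among these, C5ar1 had 652 CPM in injured and 326 CPM in uninjured cells, C3ar1 had 512 CPM in injured and 343 CPM in uninjured cells, and C1q had 25438 CPM in injured and 27704 CPM in uninjured cells. The receptor differences had the same direction as in all cells and were no smaller. Within the injured library, cells with Xist UMIs alone had 501 CPM of C5ar1 (463 to 543) and cells with Y-linked UMIs alone 652 CPM (598 to 710), so C5ar1 also varied between these classes.

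Cells of both libraries were grouped into 11 clusters with the complement genes left out of the clustering. Clusters are numbered and described by leading genes, and cluster 9 was interferon-responsive-like (Pydc3, Ifi205, Iigp1) and cluster 11 border macrophage-like (Mgl2, H2-Eb1, H2-Aa). Cluster 7 led with Apoc1, Spp1 and Cst7 but was not named, because its libraries differed. Spp1 had 26451 CPM in its 60 injured cells and 16.7 CPM in its 33 uninjured cells, and P2ry12 had 776 CPM in injured and 1815 CPM in uninjured cells of the cluster. Its uninjured cells were also shallow, with a median of 1601 UMIs. Sizes are given only as the number of cells behind a value, since genes that define the clusters differed between libraries. Levels refer to clusters with at least 20 cells of a library.

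C1q varied less across clusters than the receptors did. In injured cells the C1q sum lay between 18562 CPM in border macrophage-like cluster 11 (21 cells) and 32921 CPM in cluster 7 (60 cells), a 1.77-fold range. In uninjured cells it lay between 25712 CPM in cluster 2 (22 cells) and 33377 CPM in cluster 7 (33 cells), a 1.30-fold range. The homeostatic marker P2ry12, a purinergic receptor, ran from 117 to 2590 CPM over the same injured clusters. Between these ends the injured order was 19510 CPM in cluster 1, 21532 in cluster 10 (Nusap1, Hmmr and Cdca8, genes of cell division), 23265 in cluster 9, 24882 in cluster 6, 25501 in cluster 4, 25944 in cluster 2 and 27862 in cluster 5. Neighbours in this order overlapped for clusters 11 and 1, clusters 9 and 6, clusters 6 and 4, and clusters 4 and 2. By counting intervals, the log2 ratios of C1qa and C1qb parted within some clusters. These intervals leave out the spread between cells and are too narrow for few cells. In injured cells with at least 20 C1q UMIs, the variance of the chain share was 1.97 times that of counting for C1qa. For C1qb it was 1.88 times. In cluster 1 the log2 ratio of injured over uninjured was −0.71 (−0.87 to −0.55) for C1qa and −0.25 (−0.38 to −0.13) for C1qb. In cluster 6 it was −0.18 (−0.30 to −0.05) for C1qa and 0.12 (0.01 to 0.22) for C1qb. In cluster 7 it was 0.25 (0.12 to 0.38) for C1qa and −0.19 (−0.30 to −0.08) for C1qb. In clusters 2 and 5 the intervals of C1qa and C1qb overlapped.

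The receptors followed other clusters than C1q. C5ar1 was highest in cluster 2 of both libraries, at 707 CPM (646 to 771) in injured and 701 CPM (529 to 910) in uninjured cells. Cluster 2 led with Slc7a11, a cystine transporter gene, and Tnfrsf12a, and it held 6457 CPM of the chemokine gene Ccl4 in injured and 6581 CPM in uninjured cells. Next among injured clusters came cluster 4 with 655 CPM of C5ar1 (611 to 702), whose interval overlapped that of cluster 2. Clusters 10 (438 CPM), 11 (428) and 9 (380) followed, and clusters 7, 6, 5 and 1 had 264, 242, 236 and 141 CPM. In uninjured cells, cluster 5 followed with 378 CPM of C5ar1, clusters 3, 6, 1 and 7 had 288, 265, 213 and 200 CPM, and cluster 8 had 92.9 CPM. Counting intervals separated cluster 4 from cluster 10 in injured and cluster 2 from cluster 5 in uninjured cells, and below these gaps neighbours in the order overlapped. The range of C5ar1 was 5.00-fold in injured and 7.55-fold in uninjured cells. It depended on the number of clusters: at a clustering resolution of 0.5, in place of 1.0, it was 3.66-fold in injured and 2.98-fold in uninjured cells, and at resolution 1.5 it was 7.02-fold in injured and 7.51-fold in uninjured cells.

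C3ar1 showed a similar leading cluster and a shared low one. It was highest in cluster 2, at 626 CPM (569 to 686) in injured and 651 CPM (486 to 853) in uninjured cells. It was lowest in cluster 7, at 216 CPM (162 to 282) in injured and 133 CPM (57.5 to 263) in uninjured cells. Cluster 7, in which C1q was highest, also had the lowest summed early response genes, at 792 CPM in injured and 749 CPM in uninjured cells. Other injured clusters lay between 340 CPM (cluster 11) and 528 CPM (cluster 6), and other uninjured clusters between 257 CPM (cluster 3) and 500 CPM (cluster 5). The range of C3ar1 was 2.90-fold in injured and 4.88-fold in uninjured cells. At resolution 0.5 it was 2.90-fold in injured and 4.56-fold in uninjured cells, and at resolution 1.5 it was 4.94-fold and 4.54-fold.

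**Figure D3:**
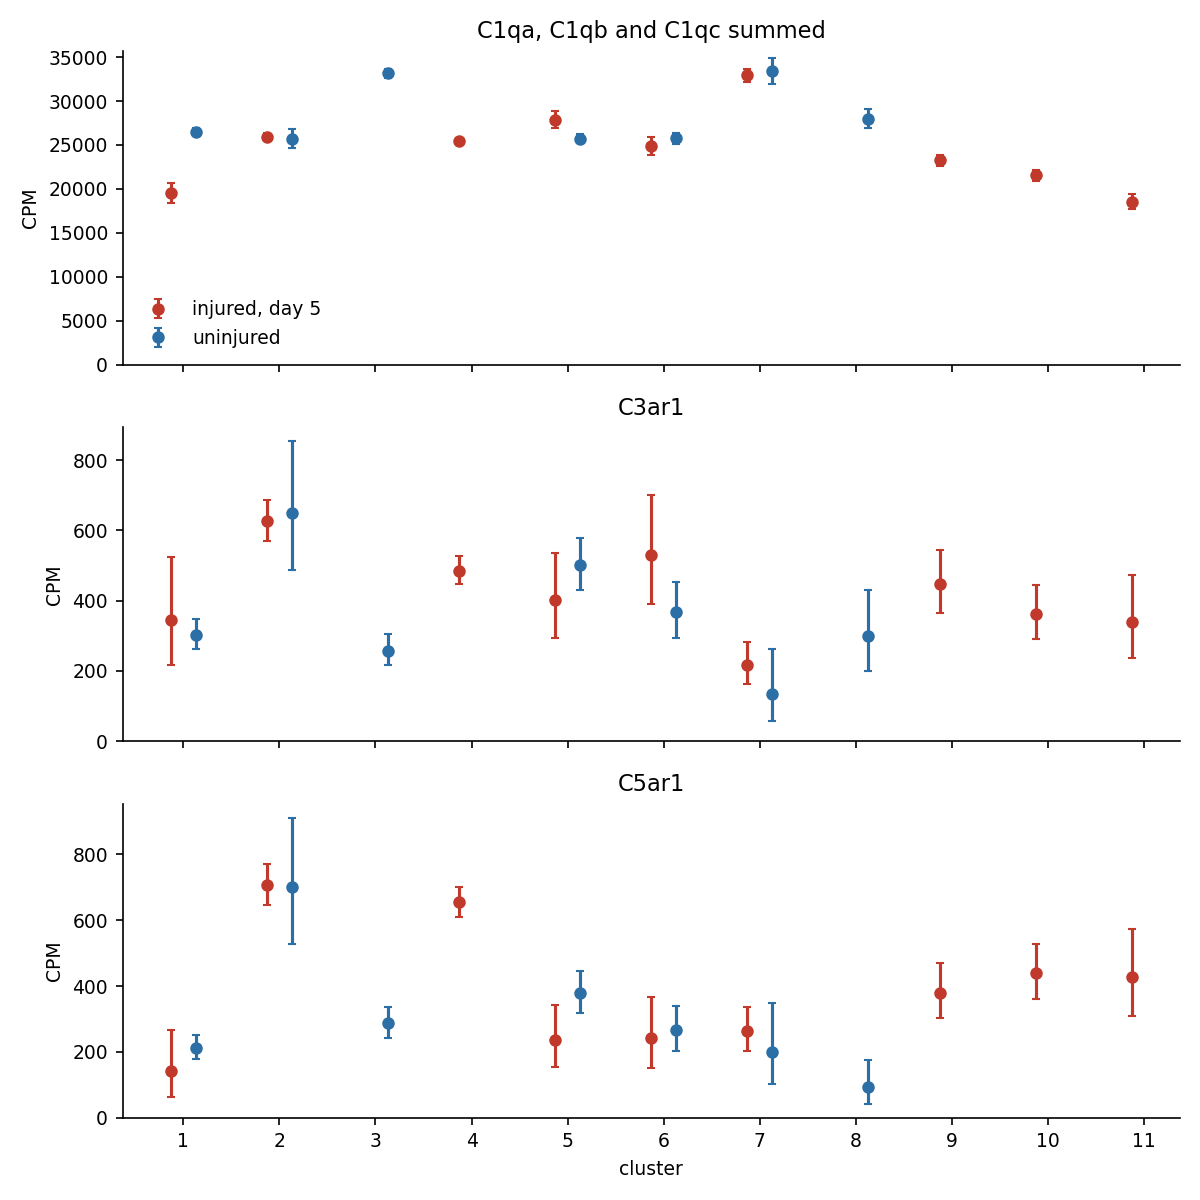
Level in CPM of the C1q chains summed, C3ar1 and C5ar1 in each cluster with at least 20 cells of a library, with exact 95% Poisson intervals; injured points stand left of uninjured ones. C1q stays between 18562 and 33377 CPM, while both receptors are highest in cluster 2, where injured and uninjured points lie level.

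Within clusters, the receptor ratios took both signs. In cluster 2 the log2 ratio was 0.01 for C5ar1 and −0.06 for C3ar1. Over the 5 clusters with at least 20 cells of each library (1, 2, 5, 6 and 7), the log2 ratio of C5ar1 ran from −0.68 to 0.40 and excluded 0 in cluster 5 alone, where it was lower in injured cells (−0.68, −1.33 to −0.08). C3ar1 ran from −0.32 to 0.70 and its interval excluded 0 in none of the 5. The highest values of both receptors came from cluster 7, whose injured and uninjured cells differed in Spp1 as given above. Clusters 2 and 4, put together because C5ar1 was highest there in injured cells, held 329 injured and 24 uninjured cells. Of these uninjured cells only 2 lay in cluster 4, with 1 C5ar1 UMI. In clusters 2 and 4 together, C5ar1 had 674 CPM in injured and 612 CPM in uninjured cells (log2 0.14, −0.24 to 0.55). In all other clusters C5ar1 had 323 CPM in injured and 277 CPM in uninjured cells (0.22, 0.03 to 0.41). Clusters 2 and 4 held 77.7% of C5ar1 UMIs in injured and 9.33% in uninjured cells, beside 62.5% of all UMIs in injured and 4.45% in uninjured cells. The same split of C3ar1 gave 537 CPM in injured and 601 CPM in uninjured cells for clusters 2 and 4 (−0.16, −0.55 to 0.25), and 346 CPM in injured and 330 CPM in uninjured cells elsewhere (0.07, −0.12 to 0.25). These clusters held 72.2% of C3ar1 UMIs in injured and 7.82% in uninjured cells, and 63.5% of C1q UMIs in injured and 3.85% in uninjured cells. Since the clusters were picked by the receptor level, smaller ratios inside each set follow in part from the choice, and the part of cell composition in the library difference was not tested.

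Across cells, the C1q chains varied together. The correlation of UMIs per 10000 between pairs of chains (Pearson's r, 577 injured and 695 uninjured cells that share library and depth) was 0.79 to 0.80 in injured and 0.59 to 0.60 in uninjured cells. Between C3ar1 and C5ar1 it was 0.29 in injured and 0.15 in uninjured cells, and between a chain and a receptor it lay between −0.09 and 0.08 in both libraries, and no pattern is read from these sparse receptor counts. Of 1280 genes compared, those most like C1qa were Ctsd (r = 0.56 in injured and 0.53 in uninjured cells), the lysosomal protease cathepsin D, and Trem2 (0.51 in injured and 0.41 in uninjured cells), a lipid-sensing microglial receptor. Ctss, the protease cathepsin S, came first for C1qb (0.60 in injured and 0.46 in uninjured cells) and for C1qc (0.49 in injured and 0.45 in uninjured cells). Trem2 and Ctss stood among the 5 most alike genes of every chain. For the receptors all values were weak. C3ar1 had Junb first among its 5 (0.29 in injured and 0.25 in uninjured cells) with Atf3 also among them (0.32 in injured and 0.22 in uninjured cells), both of the early response genes above, and C5ar1 had Cd83 first (0.31 in injured and 0.20 in uninjured cells).

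The remaining complement genes were mostly undetected or at low counts. Of 50 listed genes, 47 had 1 row each, and C1s2, Itgam and C4a were not analysed here. Of the 47, 22 had no UMI in either library, 13 had between 1 and 19, and 12 were measured with at least 20. All 7 terminal pathway genes were below that minimum, 6 of them at 0. Among these 12 measured genes, 3 were at least 2-fold higher in injured cells and 0 at least 2-fold lower (25% past 2-fold, beside 18.7% of all genes), and their median log2 ratio was 0.35.

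The 3 genes at least 2-fold higher had low counts. Colec12 was listed under lectin pattern recognition, and Cfb and Cfp under the alternative pathway. Of the 7 genes listed under lectin pattern recognition, 5 had no UMI in either library and only Colec12 was measured. Colec12, a scavenger receptor of the collectin family, had 80 UMIs in injured and 3 UMIs in uninjured cells (log2 4.17, 2.57 to 6.48). Of the 80, 53 lay in cluster 4, at 43.5 CPM, and injured cells of clusters 7 and 10 had 40.0 and 40.6 CPM. Cfb, the protease precursor of the alternative pathway, had 22 UMIs in injured and 0 UMIs in uninjured cells. Its ratio was 4.96-fold with the uninjured count set to a floor of 3 UMIs (log2 2.31, lower limit 1.89, no upper limit). Cfp, properdin, which stabilises the alternative convertase, had 39 UMIs in injured and 13 UMIs in uninjured cells (log2 1.02, 0.08 to 2.05), with 7 of the 39 injured and 7 of the 13 uninjured UMIs in border macrophage-like cluster 11. C4b, a substrate of the classical protease, had 18 UMIs in injured and 7 UMIs in uninjured cells (0.80, −0.53 to 2.30) and shares most of its sequence with C4a, so its count is uncertain. Cluster 11 held 5 of the 18 injured and all 7 uninjured C4b UMIs, and cluster 8, with endothelial and glial markers, held 6 of the injured ones. Itgax, a chain of complement receptor 4, had 23 UMIs in injured and 8 UMIs in uninjured cells (0.96, −0.25 to 2.33), an interval that spanned 0.

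Among receptors, C5ar2 stood lower in injured cells. This further C5a receptor gene had 90 UMIs (29.1 CPM) in injured and 111 UMIs (53.0 CPM) in uninjured cells (log2 −0.87, −1.28 to −0.45), the opposite direction to C5ar1 under each scaling. It was highest in cluster 6, at 143 CPM in injured and 164 CPM in uninjured cells. Calr, the chaperone calreticulin, which can bind C1q, had a log2 ratio of 0.57 (0.45 to 0.68). Cr1l, the rodent regulator Crry, had −0.15, and the integrin chains Itgb2 and Itgb1 had −0.19 and 0.13. C1qbp, a C1q-binding protein found mostly in mitochondria, had −0.25, and Lrp1, an endocytic receptor, had −0.11.

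**Figure D4:**
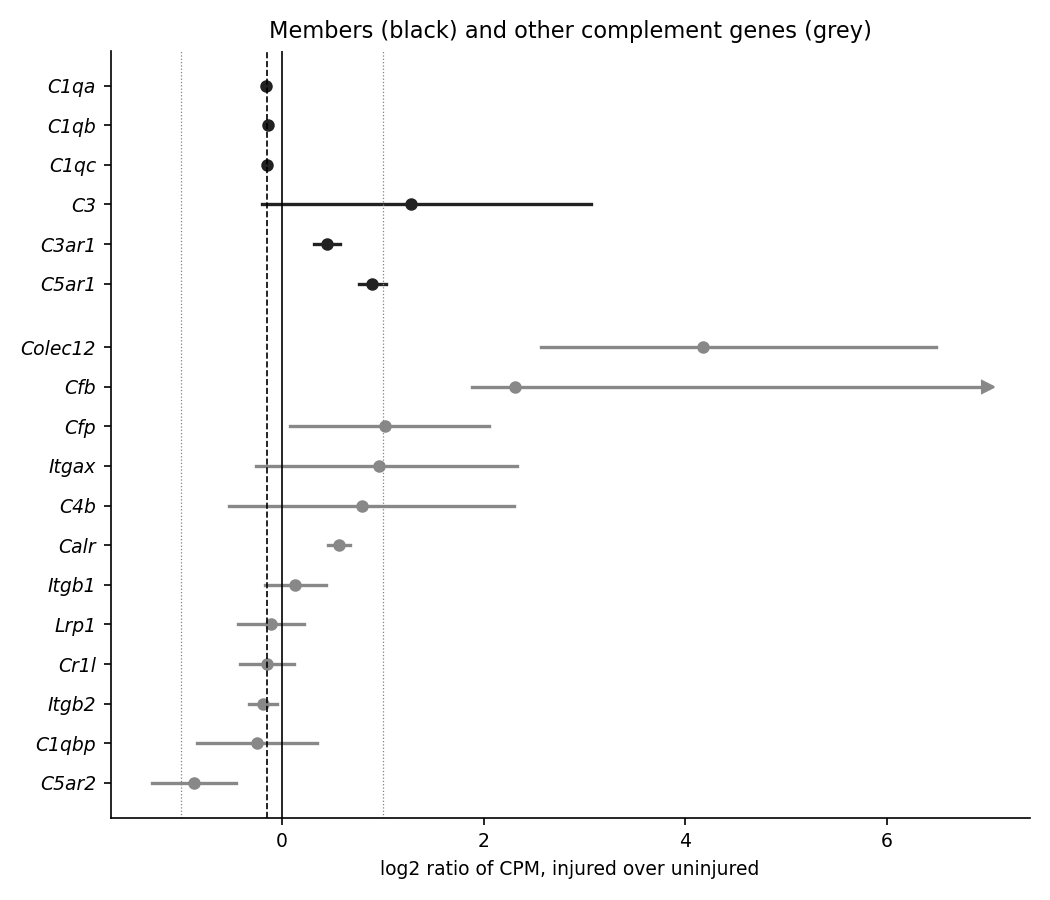
Log2 ratio of CPM, injured over uninjured, with 95% counting intervals, for the 6 members (black) and the 12 measured genes of the complement list (grey). The solid line marks 0, the dashed line the median of all genes at −0.15 and dotted lines 2-fold. The arrow on Cfb marks an interval without an upper limit, from 0 uninjured UMIs. C5ar1 at 0.89 and C5ar2 at −0.87 lie on opposite sides of 0.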

How the data were processed

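Both deposited matrices hold UMI counts, as whole numbers, for every gene in every barcode. Per the labels, libraries were made from sorted tdTomato-positive cells with 10x 3′ version 2 chemistry after digestion for 1 h at 37 °C. Cell Ranger 2.0.1, STAR, Seurat 2.1.0 and the build GRCm38.p5 (mm10) are named in the submitters' processing notes. The settings of these tools were not given in the sources used here. Of 2500 cells sorted for each library, the labels count 580 injured and 705 uninjured cells as recovered, which equals the barcodes in the files. A barcode needed 200 genes and no more than 10% mitochondrial UMIs, and 3 injured and 10 uninjured barcodes failed.

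Counts were summed over kept cells and scaled to CPM, with exact Poisson 95% intervals. Log2 ratios have Clopper-Pearson based intervals, as do shares of cells. The intervals cover counting error only, and no test between groups was possible with 1 library each. The minimum for a measured gene was 20 UMIs summed over the libraries. A count of 0 was set to a floor of 3, which is 0.969 CPM in injured and 1.43 CPM in uninjured cells. Cells were thinned to 1500 UMIs for shares, leaving out 10 injured and 91 uninjured cells. Clusters were found with scanpy 1.11.5 and leidenalg 0.10.2 (2000 variable genes, 20 components, 15 neighbours, resolution 1.0), without the complement genes. A name needed 3 markers of a list among the 10 leading genes. No doublet caller was run, the labels describe a scatter gate against doublets, and an alternative without cells over 3 times the median UMIs of their library was added after seeing the data. TMM factors came from edgeR 4.0.16, and DESeq2 size factors were computed by the median-of-ratios method. Python 3.11.15, numpy 2.4.6, scipy 1.17.1 and pandas 2.3.3 were used. The ratio and interval code was tested on simulated counts.

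All 6 members are named, every gene with at least 20 UMIs among the 50 complement genes reported, and for each member with a UMI in at least 25% of cells the 5 genes with the highest value of the lower within-library correlation, among genes with a mean of at least 0.3 UMIs per cell. The text gives the leading ones. A further complement gene is not reported here and is in none of the list's counts. The members and lists were chosen with earlier results of these data known. Alternatives covered scaling, cell filter, cell weighting, thinning, microglial clusters alone, cells with Y-linked UMIs alone, the 10 highest cells, gene minimum and cluster resolution.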

Additional observations from a re-analysis of the deposited data

How the results depend on the processing

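No member's log2 ratio that was called by its interval changed sign under the cell-based alternatives, but scaling moved C1q across 0. With TMM factors the log2 ratios were −0.0099 for C1qa, 0.0099 for C1qb, 0.00088 for C1qc, 0.59 for C3ar1 and 1.04 for C5ar1, and with DESeq2 size factors they were 0.028, 0.048, 0.039, 0.63 and 1.08 for the same genes. C1qb had −0.088 with equal weight per cell and −0.073 after thinning. In cells with Y-linked UMIs alone C1qc had −0.085 and C3ar1 0.58. Over all alternatives C5ar1 ran from 0.83 to 1.08 and C3ar1 from 0.45 to 0.63. C3 had 0.68 after thinning. C3 gave no value without the 10 highest cells. With a minimum of 1 UMI, 4 complement genes passed 2-fold upwards and 1 downwards, beside 10.2% and 14.7% of all genes upwards and downwards, leaving out genes with 3 UMIs or fewer in each library. Leaving out the 9 injured and 0 uninjured cells over 3 medians is included in these ranges. Of the remaining values, such as shares of cells, 27 stayed within their counting interval and 21 moved beyond it, chiefly shares under other depths. No paired analysis was possible because each group is 1 library and no result comes from a test. Depth limits C3 and the low complement genes most, and with 1 library per group injury cannot be told apart from the animals used.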

Other observations

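In the border macrophage-like cluster 11, C5ar1 had 428 CPM (311 to 574) in the 21 injured cells and 1057 CPM (741 to 1464) in the 9 uninjured cells, from 36 UMIs. The uninjured value rests on fewer cells than the minimum of 20 used elsewhere.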
